A study of Xenopus tropicalis with 52 samples.

Results

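The genes described here are those that encode collagens, laminins, integrin subunits and fibronectin in *Xenopus tropicalis*, a frog whose embryos develop outside the mother. They were chosen by symbol alone: col, a number and the letter a for collagens, lam, the letter a, b or c and a digit for laminins, itga or itgb with a further character for integrins, and fn1 for fibronectin. This rule found 63 of the 13394 genes with a symbol, of which 62 had exon counts among 28148 counted genes (itgb5 was listed in the 4sU table alone). They comprised fn1, 11 laminin chains, 6 basement membrane collagens, 7 fibrillar collagens, 12 other collagens, 14 integrin alpha and 7 integrin beta subunits. A further 5 genes matched by name only and encode neither matrix nor receptors: col4a3bp (a ceramide transfer protein), itgb1bp1 (an intracellular partner of integrin tails), itgb1bp2 (melusin, a muscle protein), itgb1bp3 (a nicotinamide riboside kinase) and itgb3bp (a centromere protein). No gene carried the symbol col1a1, col9a1 or col11a1, and these were not analysed here.

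The extracellular matrix is the secreted protein network that surrounds cells. Fibronectin is assembled into fibrils on the inner face of the blastocoel roof of the frog embryo, and migrating mesendoderm cells of the gastrula crawl on it. Laminins are trimers of an alpha, a beta and a gamma chain that build the first sheet of every basement membrane, which collagen IV and collagen XVIII then stabilise. Fibrillar collagens such as collagen II, with collagen IX on their surface, form the sheath of the notochord and later cartilage. Integrins are receptors made of an alpha and a beta subunit that tie this matrix to the cytoskeleton: the products of itga5, itga4 and itgav pair with beta subunits to bind fibronectin, those of itga3, itga6 and itgb4 are laminin receptors, and the product of itgb1 pairs with most alpha subunits.

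The study asked how embryonic signals and transcription factors control the activation of the zygotic genome. Poly(A) RNA was sequenced from pools of 10 to 15 embryos at stage 9+ (late blastula) in 8 groups of 3 libraries, and at stages 10+, 11+ and 12+ (early to late gastrula) in 6 groups of 4 libraries. The loss-of-function (LOF) groups at stage 9+ were Wnt LOF (5 ng of an antisense morpholino, MO, against β-catenin), Nodal LOF (100 µM of the receptor inhibitor SB431542), BMP LOF (10 µM of the receptor inhibitor LDN193189), and the combinations Wnt/Nodal, Wnt/BMP, Nodal/BMP and Wnt/Nodal/BMP LOF, with uninjected embryos in the solvent DMSO as control. Inhibitors were applied from the 8-cell stage, and every Wnt LOF group was injected whereas its control was not, so the injection and the loss of Wnt cannot be told apart in comparisons with the control. The 4x zT LOF groups received MOs against 4 zygotic T-box transcription factors. The doses were 5 ng for zygotic VegT, 5 ng for Eomes and 2.5 ng for each of 4 MOs against Xbra and Xbra3. The controls of these groups received a control MO (5 or 20 ng), which the study dosed according to the LOF experiment it served. MOs act on the translation or splicing of their targets, so the target transcripts do not measure the knockdown. A separate table held 1 library each of input and 4sU-enriched RNA at stage 8+ (about the midblastula transition) and stage 10+, from pools of 30 embryos injected with 75 ng of 4-thiouridine, which marks newly made RNA.

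Libraries at stage 9+ held 27710453 to 45443446 exon counts and 1111752 to 1914882 intron counts. Those of the T-box experiment held 26586752 to 60984753 exon and 1565436 to 4708294 intron counts. Levels are given as CPM, the count of a gene relative to the TMM-scaled library size, without regard to gene length, and were compared between samples and not between genes. The test was the quasi-likelihood test of edgeR, adjusted by Benjamini-Hochberg over all 16001 genes tested at stage 9+ or all 17188 in the T-box experiment. A gene was called where the adjusted p did not exceed 0.1, and errors of log2 fold changes are standard errors (SE). Of the matrix and integrin genes, 45 passed the filter on low counts in the stage 9+ libraries and 48 in the T-box libraries. Both numbers, and the totals and medians given below, include the 5 genes matched by name only. Libraries with the same replicate number deviated together from their group means in both experiments. The main tests did not use this pairing, and fits with the replicate number as a block are given as alternatives. Because whole embryos were sequenced, fewer cells of a type and less RNA per cell cannot be told apart.

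Between early and late gastrula, transcripts of most matrix and integrin genes rose in control MO embryos. From stage 10+ to stage 12+, 31 of the 48 genes tested were called higher (40.1% of all genes tested were) and 9 lower (41% of all genes). The 5 genes matched by name only gave 2 of the higher and 2 of the lower calls. Between stages 10+ and 11+, 19 were higher (28.5% of all genes) and 2 lower (29.2%). Between stages 11+ and 12+, 30 were higher (36.3% of all genes) and 8 lower (36%). The median log2 fold change over the 48 genes was 1.73 from stage 10+ to stage 12+, against -0.04 over all genes tested. The filter on low counts, applied alike to all genes, required enough counts in only as many libraries as a group held. Genes scarce before stage 12+ could thus be tested because of that stage. Their rises, and so the counts of genes called higher, were partly set by the filter.

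Laminin and fibrillar collagen chains were among those that rose most steeply. The laminin chain lama1 had 0.472, 0.989, 2.2 and 0.744 CPM at stage 10+, 6.37, 10.3, 18.2 and 14.5 CPM at stage 11+, and 203, 242, 238 and 270 CPM at stage 12+ in control MO embryos. Its usual partner lamb1 had 4.37 to 18.7 CPM at stage 10+, 58.7 to 90.9 CPM at stage 11+ and 508 to 709 CPM at stage 12+. The stages did not overlap for either chain, and the log2 fold changes from stage 10+ to stage 12+ were 7.72 ± 0.49 for lama1 (SE, edgeR adjusted p = 3.29e-12) and 5.86 ± 0.41 for lamb1 (adjusted p = 1.38e-11). Of the 9 laminin chains tested, 7 rose over this period and 2 fell. The fibrillar collagen chain col5a1 had 0 to 0.115 CPM at stage 10+ (6 read counts over 4 libraries), 0.0799 to 0.281 CPM at stage 11+ and 14 to 23 CPM at stage 12+. Collagen II (col2a1) had at most 0.0866 CPM at stage 10+ and at most 0.266 CPM at stage 11+, and 10.6, 14.2, 15.6 and 20.4 CPM at stage 12+. All 7 fibrillar collagens tested were called higher at stage 12+ than at stage 11+, but the calls of col11a2p (adjusted p = 0.117 without replicate 2) and col27a1 (0.138 without replicate 2 and 0.125 without replicate 4) were not stable. Chains near 0 at the earlier stages, such as col5a1, could be tested because of their counts at stage 12+. The count of 7 was therefore partly set by the filter on low counts. The collagen VI chain col6a1 rose by 5.96 ± 0.62 from stage 10+ to stage 12+ (adjusted p = 1.15e-08), at 0 to 0.046 CPM at stage 10+ and 0.997 to 1.80 CPM at stage 12+.

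Fibronectin and the broadly acting integrin subunits were already abundant at stage 10+ and rose less. Transcripts of fn1 stood at 692, 766, 725 and 781 CPM at stage 10+, 1119, 1289, 1341 and 1283 CPM at stage 11+, and 2065, 2373, 2173 and 2367 CPM at stage 12+ (log2 fold change from stage 10+ to 12+ 1.60 ± 0.07, edgeR adjusted p = 1.44e-14). For itgb1 the values were 501 to 535 CPM at stage 10+, 575 to 617 CPM at stage 11+ and 620 to 710 CPM at stage 12+, a log2 fold change of 0.37 ± 0.06 (adjusted p = 4.4e-06). Its partner itga5 had 64.5 to 111 CPM at stage 10+, 104 to 154 CPM at stage 11+ and 227 to 322 CPM at stage 12+ (1.59 ± 0.16, adjusted p = 6.7e-09). Intron counts of both were called lower at stage 12+ than at stage 10+, with log2 fold changes of -2.28 for itgb1 (adjusted p = 3.62e-10) and -0.45 for itga5 (adjusted p = 0.0625). Introns were scaled to intron totals, which were larger relative to exon totals at stage 12+. In control MO embryos they were 1905273 to 2873307 beside 26586752 to 39501167 exon counts there. At stage 10+ they were 1565436 to 2991910 beside 38911723 to 60984753. The part of this scaling in the intron differences between stages was not tested. The laminin receptor subunits itgb4 and itga3 rose more steeply, with log2 fold changes of 4.86 ± 0.28 for itgb4 (1.38 to 3.28 CPM at stage 10+ and 48.2 to 73.3 CPM at stage 12+) and 4.62 ± 0.33 for itga3 (1.26 to 2.46 CPM at stage 10+ and 39.5 to 54.6 CPM at stage 12+), whereas itga6 had 37.8 to 93.7 CPM at stage 10+ and 166 to 200 CPM at stage 12+ (1.65 ± 0.28, adjusted p = 1.31e-05). The 9 genes that fell included the collagen IV chains col4a5 (-1.69 ± 0.16) and col4a2 (-1.95 ± 0.55), the laminin chains lama2 (-1.60 ± 0.31) and lamb4 (-2.60), and the integrin subunits itgav (-1.29 ± 0.12), itga7 (-1.51) and itga1 (-3.54 ± 0.73). The calls of lamb4 and itga7 were lost when the libraries of replicate 3 (lamb4, adjusted p = 0.127), replicate 2 (itga7, adjusted p = 0.185) or replicate 4 (itga7, adjusted p = 0.191) were left out. The number of calls over this period was 38 to 40 when the libraries of any replicate number were left out.

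After the loss of the 4 T-box factors, the called differences were mainly lower transcript levels, and there were more of them at the later stages. In 4x zT LOF embryos, 3 of 48 genes were lower than in control MO embryos at stage 10+ (8% of all genes tested were lower) and 1 was higher (9.37%), with calls in either direction for 17.4% of all genes. At stage 11+, 14 were lower (16.8% of all genes) and 2 higher (16.8%), beside 33.7% of all genes in either direction. At stage 12+, 18 were lower (16.4% of all genes) and 3 higher (21.4%), beside 37.8% in either direction. The median log2 fold changes over the 48 genes were -0.07, -0.26 and -0.38 at stages 10+, 11+ and 12+, against -0.02, -0.02 and 0.03 over all genes tested. In a fit of condition over the 3 stages together, 16 were lower (20.3% of all genes) and 2 higher (21.6%), with 41.9% of all genes called in either direction. Genes lower at stage 12+ included some that rose with stage in control MO embryos, such as lama1, lamb1, itga3 and itgb4. Of those higher there, itgav and lama2 fell with stage, whereas col18a1 and itga6 rose and were not called lower at stage 12+. A difference in the pace of development between the groups was not tested.

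**Figure D1:**
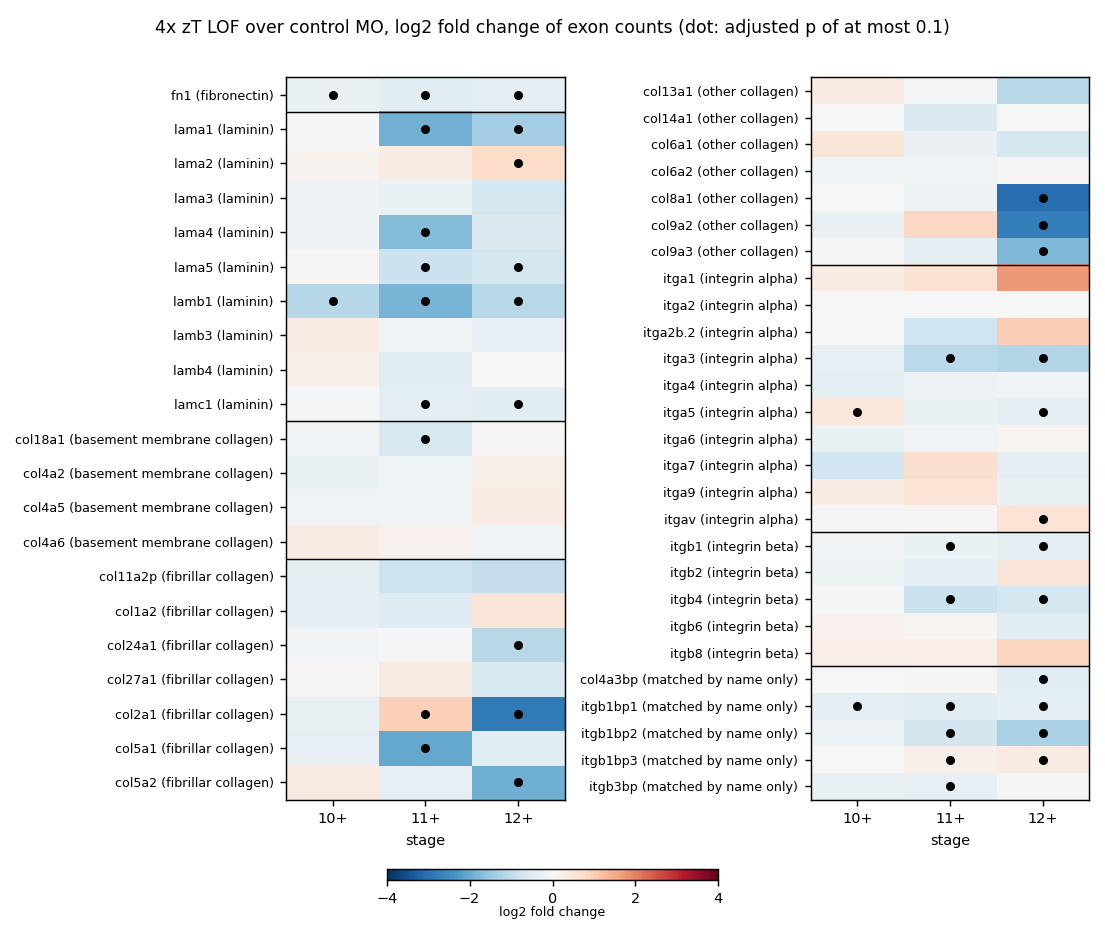
Log2 fold change of exon counts in 4x zT LOF over control MO embryos (colour scale, blue lower and red higher) for the 48 matrix and integrin genes tested (down the page, by family) at stages 10+, 11+ and 12+ (across), with a dot where the adjusted p was at most 0.1. Dots stood on 4 genes at stage 10+, 16 at stage 11+ and 21 at stage 12+, and the darkest blue cells were those of col8a1, col2a1 and col9a2 at stage 12+.

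Fibronectin was lower at all 3 stages. Transcripts of fn1 measured 595, 650, 566 and 648 CPM in 4x zT LOF embryos at stage 10+, against 692, 766, 725 and 781 CPM in control MO embryos. The groups did not overlap at this or either later stage, where 4x zT LOF embryos had 929, 951, 910 and 857 CPM against 1119, 1289, 1341 and 1283 CPM at stage 11+, and 1755, 1910, 1743 and 1541 CPM against 2065, 2373, 2173 and 2367 CPM at stage 12+. The log2 fold changes were -0.27 ± 0.07 (edgeR adjusted p = 0.0107), -0.46 ± 0.07 (adjusted p = 3.39e-05) and -0.37 ± 0.07 (adjusted p = 0.000297), so that 4x zT LOF embryos retained 82.9%, 72.5% and 77.4% of the control level. The call at stage 10+ was lost without the libraries of replicate 3 (adjusted p = 0.131).

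Of 9 laminin chains tested, 5 were lower at stage 11+ (16.8% of all genes tested were), and 4 were lower (16.4%) and 1 higher (21.4%) at stage 12+. No other family had as many calls at these stages, but the families differed in size, and 4 of the 5 genes matched by name only were called at each. The alpha chain lama1 had 2.43, 3.11, 5.12 and 2.4 CPM in 4x zT LOF embryos at stage 11+, against 6.37, 10.3, 18.2 and 14.5 CPM in control MO embryos (-1.92 ± 0.39, edgeR adjusted p = 0.000776). At stage 12+ it had 91.6, 93.9, 98.2 and 79.5 CPM against 203, 242, 238 and 270 CPM (-1.39 ± 0.36, adjusted p = 0.00536). The groups did not overlap at either stage, whereas at stage 10+ they covered almost the same range (0.449 to 2.12 CPM in 4x zT LOF embryos and 0.472 to 2.2 CPM in control MO embryos). The beta chain lamb1 was lower at all 3 stages. At stage 10+ it had 3.21, 5.47, 7.73 and 2.12 CPM in 4x zT LOF embryos, against 4.37, 9.77, 18.7 and 8.07 CPM in control MO embryos (-1.14 ± 0.35, adjusted p = 0.0346), ranges that overlapped although the 4x zT LOF library was the lower in 4 of 4 same-numbered pairs. This call was lost without replicate 2 (adjusted p = 0.133) or replicate 4 (adjusted p = 0.158).

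The groups separated fully for lamb1 at the later stages. At stage 11+ it had 24.7, 22.4, 24 and 13.1 CPM in 4x zT LOF embryos, against 58.7, 70.5, 90.9 and 81.9 CPM in control MO embryos (27.9% of the control level, edgeR adjusted p = 0.000324). At stage 12+ the values were 317, 297, 225 and 260 CPM against 508, 616, 550 and 709 CPM (46.1% of the control level, adjusted p = 0.0131). The alpha chain lama5, found in many epithelial basement membranes, had 36.3, 36.2, 39 and 30.5 CPM in 4x zT LOF embryos at stage 11+, against 62.9, 57.3, 76.6 and 63.1 CPM (-0.87 ± 0.12, adjusted p = 8.56e-06), and 149, 167, 140 and 157 CPM against 230, 223, 222 and 322 CPM at stage 12+ (-0.70 ± 0.11, adjusted p = 6.92e-05). Both differences exceeded the spread between libraries. At stage 10+, lama5 had 31.8 to 38.4 CPM in 4x zT LOF embryos and 32.9 to 38.6 CPM in control MO embryos.

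The other laminin chains moved less or in another direction. The gamma chain lamc1, which most laminins share, had 249, 288, 261 and 256 CPM in 4x zT LOF embryos at stage 12+, against 342, 362, 357 and 365 CPM in control MO embryos, with no overlap (-0.44 ± 0.10, edgeR adjusted p = 0.00189). At stage 11+ its ranges overlapped (103 to 131 CPM against 116 to 173 CPM, -0.36 ± 0.10, adjusted p = 0.00938), and the call was lost without replicate 4 (adjusted p = 0.151). The alpha chain lama4 was lower at stage 11+, with 0.832, 0.74, 1.05 and 0.262 CPM against 1.89, 3.21, 2.71 and 1.83 CPM (-1.74 ± 0.34, adjusted p = 0.000519). At stage 12+ it had 1.46 to 2.39 CPM against 1.53 to 3.07 CPM and was called only with the replicate number as a block (adjusted p = 0.0767 with the block and 0.207 without it). The alpha chain lama2, best known from muscle basement membranes, was the laminin chain called higher, with 13.8, 23.5, 27.9 and 16.3 CPM in 4x zT LOF embryos at stage 12+, against 10.8, 14.1, 16.5 and 7.21 CPM (0.74 ± 0.31, adjusted p = 0.0757). Its ranges overlapped, but the 4x zT LOF library was the higher in 4 of 4 same-numbered pairs, and the adjusted p was 1.68e-06 with the replicate block. Without the block, its call was lost when the libraries of any of the 4 replicate numbers were left out (adjusted p between 0.105 and 0.194).

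Among collagens, the falls at stage 12+ included chains known from the notochord and cartilage. Collagen II (col2a1) had 2.89, 1.78, 1.55 and 2.37 CPM in 4x zT LOF embryos at stage 12+, against 10.6, 14.2, 15.6 and 20.4 CPM in control MO embryos, 14.1% of the control level (log2 fold change -2.82 ± 0.36, edgeR adjusted p = 3.77e-06). The collagen IX chain col9a2 had 0.609, 1.43, 1.05 and 0.948 CPM against 5.33, 7.81, 7.94 and 6.18 CPM (-2.75 ± 0.51, adjusted p = 0.000282). The second collagen IX chain measured, col9a3, had 6.78, 6.12, 6.04 and 8 CPM against 24.7, 24.1, 25 and 19.9 CPM (-1.80 ± 0.27, adjusted p = 2.26e-05). None of these groups overlapped, and each of the 3 calls held under every alternative that used exon counts.

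At the earlier stages these chains were scarce and did not fall together. At stage 11+, col2a1 was higher in 4x zT LOF embryos, with 0.64, 0.281, 0.292 and 0.283 CPM against 0.266, 0.148, 0.214 and 0.141 CPM in control MO embryos (0.97 ± 0.41, edgeR adjusted p = 0.0887). The groups did not overlap, but this call was lost without the filter on low counts (adjusted p = 0.131) and without any of the 4 replicate numbers (adjusted p between 0.127 and 0.235). With the replicate block, col9a2 was also called higher at stage 11+ (0.384 to 2.27 CPM against 0.426 to 1.07 CPM, adjusted p = 0.036 with the block and 0.252 without it), whereas col9a3 was called lower (2.88 to 5.86 CPM against 4.28 to 7.73 CPM, adjusted p = 0.0758 with the block and 0.319 without it).

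Further collagens were lower at 1 stage each. The fibrillar chain col5a2 had 1.43, 2.52, 1.4 and 1.12 CPM in 4x zT LOF embryos at stage 12+, against 3.83, 6.52, 7.91 and 6.64 CPM (-1.94 ± 0.52, edgeR adjusted p = 0.00659). The short-chain collagen col8a1 had 0.132, 0.021, 0.35 and 0.307 CPM against 0.823, 2.17, 1.52 and 2.19 CPM (-3.06 ± 1.07, adjusted p = 0.0343). Neither pair of groups overlapped. For col24a1 the ranges overlapped (0.558 to 1.11 CPM against 0.851 to 2.46 CPM, adjusted p = 0.0182), and its call was lost without replicate 2 (adjusted p = 0.11) or replicate 4 (adjusted p = 0.109). Collagen XVIII (col18a1), a basement membrane collagen, was lower at stage 11+ with 104, 113, 112 and 96.6 CPM against 128, 173, 162 and 195 CPM (-0.63 ± 0.16, adjusted p = 0.00415, and 0.112 without replicate 4). At stage 12+ it had 452, 486, 445 and 426 CPM against 409, 470, 406 and 461 CPM, a log2 fold change of 0.05 that was not called. For col5a1, the call at stage 11+ rested on 7 read counts in 4x zT LOF embryos and 30 in control MO embryos (adjusted p = 0.0312) and was lost without replicate 3 (adjusted p = 0.152) or replicate 4 (adjusted p = 0.179). At stage 12+ col5a1 had 13.6, 18.8, 14.1 and 9.18 CPM against 14, 23, 18.6 and 20.9 CPM (-0.46, called only with the block, adjusted p = 0.0733).

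Called lower at stage 12+ were 3 of 7 fibrillar, 3 of 7 other and 0 of 4 basement membrane collagens tested (16.4% of all genes). The collagen I chain col1a2 and the collagen IV chains were not among them. At stage 12+, col1a2 had 8.35, 6.16, 4.46 and 4.57 CPM in 4x zT LOF embryos and 4.17, 4.59, 4.11 and 3.72 CPM in control MO embryos, higher in 4 of 4 same-numbered pairs but called only with the block (edgeR adjusted p = 0.0598 with it and 0.278 without it). The collagen IV chain col4a5 had 17.9, 21.3, 16.9 and 21.8 CPM against 18.2, 14, 13.8 and 16.5 CPM (0.32, adjusted p = 0.0116 with the block and 0.128 without it). For col4a2 the values were 1.81 to 4.93 CPM against 1.07 to 5.02 CPM (0.22, adjusted p = 0.0543 with the block and 0.804 without it). The transmembrane collagen col13a1 had 3.42, 3.9, 3.15 and 3.12 CPM against 5.56, 9.19, 6.86 and 7.63 CPM, with no overlap (-1.10, adjusted p = 0.0147 with the block and 0.141 without it). The chain col4a1 reached at most 0.195 CPM in any library of the T-box experiment and was not tested there.

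Of the integrin subunits, itga3, itgb4 and itgb1 were lower at stages 11+ and 12+, and itgav was higher at stage 12+. The alpha subunit itga3 had 23.9, 16.1, 22.8 and 17.3 CPM in 4x zT LOF embryos at stage 12+, against 39.5, 42.4, 54.6 and 45.6 CPM in control MO embryos (log2 fold change -1.18 ± 0.28, edgeR adjusted p = 0.0029). At stage 11+ its ranges overlapped (1.83 to 4.13 CPM against 3.7 to 9.76 CPM, -1.09 ± 0.29, adjusted p = 0.0077). The beta subunit itgb4, which pairs with the product of itga6, had 37.2, 30.3, 42.6 and 39.7 CPM against 48.2, 53.4, 69.7 and 73.3 CPM at stage 12+ (-0.71 ± 0.24, adjusted p = 0.029, and 0.158 without replicate 4). At stage 11+ it had 4.16, 3.37, 4.2 and 3.07 CPM against 6.13, 4.49, 10.4 and 5.77 CPM, without overlap (-0.86 ± 0.25, adjusted p = 0.0131). The subunit itga6 itself was not called at any stage, with 179, 196, 216 and 171 CPM against 171, 169, 199.7 and 166 CPM at stage 12+ (0.11).

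The common beta subunit itgb1 was lower by a small and even margin. It had 501, 525, 452 and 501 CPM in 4x zT LOF embryos at stage 11+, against 596, 575, 602 and 617 CPM in control MO embryos (-0.27 ± 0.06, edgeR adjusted p = 0.00107). At stage 12+ it had 476, 536, 502 and 513 CPM against 620, 668, 676 and 710 CPM (-0.40 ± 0.06, adjusted p = 1.52e-05). The groups did not overlap at either stage. At stage 10+ it had 426 to 507 CPM against 501 to 535 CPM, a difference called only with the block (adjusted p = 0.0841 with it and 0.208 without it).

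The fibronectin receptor subunit itga5 changed direction between stages. At stage 10+ it was higher in 4x zT LOF embryos, with 136, 114, 112 and 146 CPM against 111, 95, 64.5 and 98.7 CPM in control MO embryos (0.46 ± 0.16, edgeR adjusted p = 0.0554). At stage 12+ it was lower, with 183, 211, 233 and 245 CPM against 227, 271, 290 and 322 CPM (-0.35 ± 0.16, adjusted p = 0.0973). Both calls were close to the threshold. The first was lost without replicate 2 (adjusted p = 0.12), replicate 3 (adjusted p = 0.217) or replicate 4 (adjusted p = 0.214), and the second without any replicate number (adjusted p between 0.113 and 0.233) and without the filter on low counts (adjusted p = 0.145). The subunit itgav, which binds fibronectin and vitronectin, was higher at stage 12+, with 9.91, 12.2, 10.9 and 12.5 CPM against 9.02, 7.52, 8.1 and 6.56 CPM, without overlap (0.54 ± 0.12, adjusted p = 0.00156). At stages 10+ and 11+ itgav lay between 16.6 and 22.6 CPM in 4x zT LOF embryos and between 16.9 and 21.8 CPM in control MO embryos. The subunit itga4 was not called at any stage (24.7 to 33.2 CPM against 23.6 to 37.9 CPM at stage 12+), and itgb3 reached at most 0.167 CPM and was not tested.

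**Figure D2:**
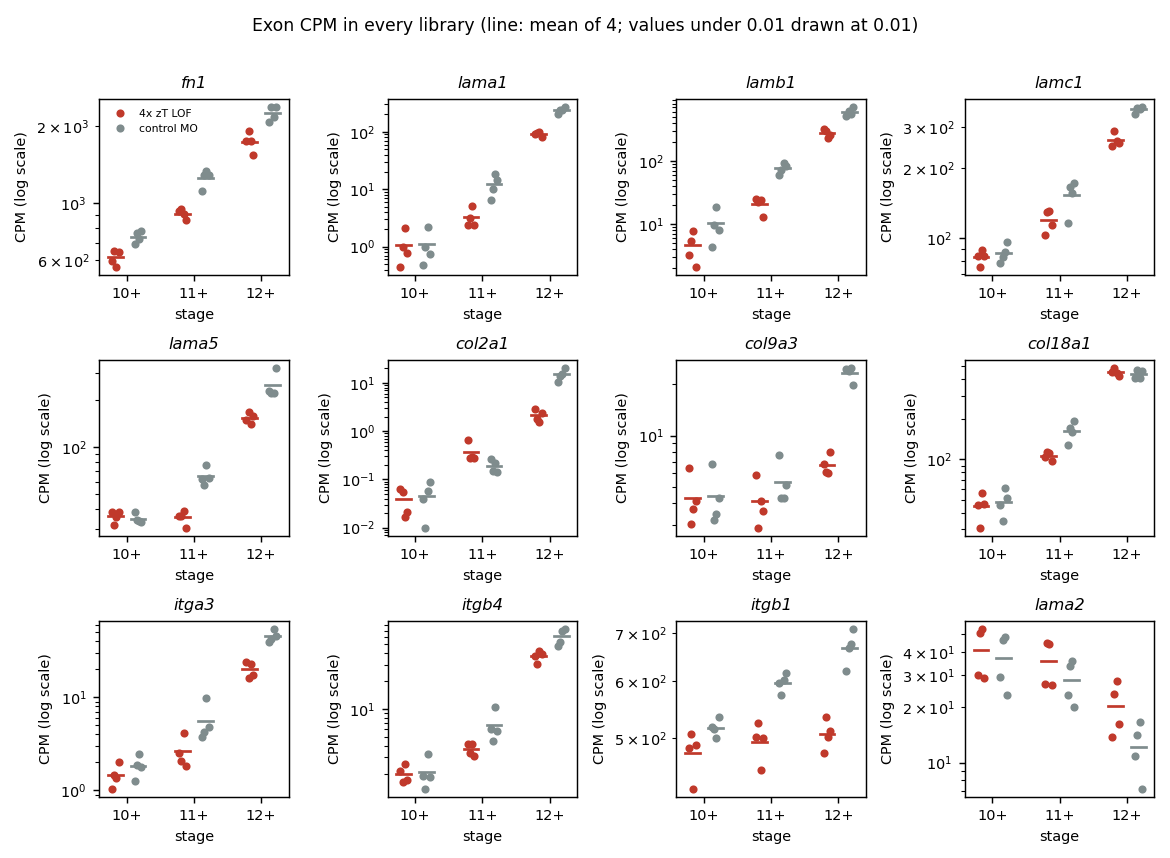
Exon CPM (log axis) of 12 matrix and integrin genes at stages 10+, 11+ and 12+, with 4x zT LOF embryos in red left of control MO embryos in grey, 1 point per library and a line at the mean of 4 libraries. The red and grey points separated at all 3 stages for fn1 and at stages 11+ and 12+ for lama1, lamb1 and lama5, while for col2a1 the red points lay above the grey ones at stage 11+ and below them at stage 12+.

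Of the genes matched by name only, 4 of 5 were called at stage 11+ and 4 at stage 12+. Melusin (itgb1bp2) had 6.28, 5.33, 5.71 and 5.83 CPM in 4x zT LOF embryos at stage 12+, against 9.82, 16.8, 13.5 and 16.8 CPM in control MO embryos (-1.30 ± 0.18, edgeR adjusted p = 1.42e-05). The kinase itgb1bp3 was higher, with 142, 128, 155 and 136 CPM against 103, 99, 119 and 121 CPM (0.35, adjusted p = 0.00167), whereas its intron counts were called lower (-0.79, adjusted p = 0.000521). Neither pair of exon values overlapped. The others were col4a3bp (-0.43 ± 0.08 at stage 12+, adjusted p = 0.000359), itgb1bp1 (-0.39, -0.45 and -0.40 at stages 10+, 11+ and 12+) and itgb3bp (-0.33 at stage 11+). The calls of itgb1bp1 at stage 10+ (adjusted p = 0.14 without replicate 4), itgb3bp at stage 11+ (0.169 without replicate 2 and 0.185 without replicate 3) and itgb1bp3 at stage 11+ (0.109 to 0.201 without any replicate number) were not stable.

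Altogether 23 of the 48 genes tested were called at none of the 3 stages, namely lama3, lamb3, lamb4, col1a2, col4a2, col4a5, col4a6, col6a1, col6a2, col11a2p, col13a1, col14a1, col27a1, itga1, itga2, itga2b.2, itga4, itga6, itga7, itga9, itgb2, itgb6 and itgb8. Their log2 fold changes at stage 12+ ran from -1.10 (col13a1) to 1.74 (itga1, 14 read counts in 4x zT LOF embryos and 3 in control MO embryos, adjusted p = 0.113 in edgeR's test). The share of all genes called at none of the 3 stages was not determined, so the count of 23 does not compare these genes with others. A further 14 genes were too low to test and reached at most 0.398 CPM, among them lamb2, col4a1, col6a3, col8a2, col12a1, col15a1, col21a1, col28a1, itga8, itga11, itgae, itgal and itgb3. No call of the 21 at stage 12+ was lost under DESeq2 size factors or DESeq2's own test, and 17 held under every alternative that used exon counts, as did 10 of 16 at stage 11+ and 0 of 4 at stage 10+. With the replicate number as a block, 7 genes were called at stage 10+ (33.3% of all genes tested were), adding col4a2, itgb1 and itgb3bp.

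The size of the effect differed between stages for 14 of the 48 genes in the stage by condition test (27.1% of all genes tested).  This count was close to the share over all genes, so the test did not set the matrix and integrin genes apart from others. The 14 were col2a1 (edgeR adjusted p = 0.000111), lama5 (0.000589), col9a2 (0.00251), col9a3 (0.00304), col4a3bp (0.00736), itga5 (0.0167), itgb1bp2 (0.0172), itgav (0.0291), itgb1 (0.0412), lama4 (0.049), col5a2 (0.0603), col18a1 (0.0619), lama1 (0.064) and itgb1bp3 (0.0758). With the replicate block the count was 22 (48.6% of all genes), and without single replicate numbers it was 6 to 12, falling to 8 without replicate 2 and 6 without replicate 4. The test was not passed by fn1 or lamb1, so that a difference between stages in the size of their fall was not shown.

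Other genes of the same pathways were examined as 4 lists, beside 33.7% of all genes called in either direction at stage 11+ and 37.8% at stage 12+. By direction, 16.8% of all genes were lower and 16.8% higher at stage 11+, and 16.4% lower and 21.4% higher at stage 12+. Of 31 further matrix and linker proteins, 23 were tested, and 9 were lower and 1 higher in 4x zT LOF embryos at stage 11+, and 6 lower and 2 higher at stage 12+. At stage 12+ the share called in either direction was no larger than over all genes, whereas the share called lower was larger. The microfibril protein fbn3 changed most at stage 12+ (log2 fold change -3.89 ± 0.28, edgeR adjusted p = 1.67e-09), efemp2, which organises elastic fibres, was lower at stages 11+ (-1.97) and 12+ (-3.79), and vcan, a hyaluronan-binding proteoglycan, was lower at all 3 stages (-0.67, -0.79 and -0.59 in order of stage). The laminin receptor dystroglycan (dag1) was also lower at all 3 stages (-0.48, -0.22 and -0.35), whereas the heparan sulphate proteoglycan sdc1 was higher (0.33, 0.42 and 0.60). Of 22 collagen-modifying enzymes, 16 were tested, with 3 lower and 2 higher at stage 11+ and 7 lower and 1 higher at stage 12+. These included the collagen lysyl hydroxylases plod2 (-0.85, -3.75 ± 0.27 and -2.62) and plod1 (-1.24 and -1.83 at stages 11+ and 12+), and at stage 12+ the crosslinking enzyme lox (-1.34) and the prolyl hydroxylase subunit p4ha1 (-0.80). Of 23 intracellular partners of integrins, 20 were tested, with 2 lower and 3 higher at stage 11+ and 5 lower and 1 higher at stage 12+. The shares called in either direction were below those over all genes, whereas the share called lower at stage 12+ was larger. The higher one at stage 12+ was vinculin (vcl, 0.65). Of 16 matrix proteases and inhibitors, 9 were tested, with 2 lower and 1 higher at stage 11+ and 1 lower and 1 higher at stage 12+, and the membrane protease mmp14 was lower at all 3 stages (-0.67, -0.86 and -0.45).

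Markers of several tissues moved with the same comparison. Of 6 muscle markers, 3 were tested, of which 2 were lower and 1 higher at stage 12+, and the summed level of the list was 15.5 to 61.0 CPM in 4x zT LOF embryos and 288 to 529 CPM in control MO embryos. Of 8 mesoderm markers, 5 were tested and 4 were lower, with sums of 150 to 205 CPM in 4x zT LOF and 222 to 324 CPM in control MO embryos. Of 9 notochord and organizer markers, all tested, 4 were lower and 1 higher at stage 12+, with sums of 668 to 1007 CPM in 4x zT LOF and 933 to 1055 CPM in control MO embryos. The 7 markers of ventral mesoderm and blood were all higher at stage 12+ (2062 to 2205 CPM in 4x zT LOF and 1629 to 1699 CPM in control MO embryos), after 5 of them had been lower at stages 10+ and 11+. Of the other lists at stage 12+, 4 of 7 endoderm, 3 of 7 epidermis and 2 of 7 neural markers tested were higher and 0 lower. Their sums were 1179 to 1536, 9782 to 11096 and 1517 to 1993 CPM in 4x zT LOF embryos, and 1084 to 1236, 8767 to 10361 and 1446 to 1585 CPM in control MO embryos. The part of these tissues in the lower laminin, collagen and integrin transcripts was not tested.

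Intron counts, which come largely from transcripts not yet spliced, gave larger differences for fibronectin. Of 36 genes with enough intron counts, 3 were lower in 4x zT LOF embryos at stage 10+ (5.92% of all 13026 genes tested) and 0 higher (5.37%), 6 were lower at stage 11+ (10.9%) and 1 higher (10.7%), and 11 were lower at stage 12+ (15%) and 3 higher (15.6%). Introns of fn1 had 206, 208, 206 and 163 CPM in 4x zT LOF embryos at stage 10+, against 417, 635, 999 and 485 CPM in control MO embryos (log2 fold change -1.70 ± 0.23, edgeR adjusted p = 2.95e-05). At stage 12+ they had 479, 677, 475 and 465 CPM against 2031, 3081, 3386 and 3203 CPM (-2.48 ± 0.23, adjusted p = 2.66e-08). No 4x zT LOF library reached the lowest control MO library at either stage. For col9a2 the intron difference at stage 12+ was -4.18 ± 0.46 (adjusted p = 3.85e-07), with 0.564 to 1.31 CPM against 14.8 to 21.8 CPM. Introns of lama5 were lower at all 3 stages, with 26.3 to 31.7 CPM against 32.9 to 75.3 CPM at stage 10+, 51.5 to 60.2 CPM against 107 to 139 CPM at stage 11+, and 34.7 to 47.2 CPM against 67.2 to 84 CPM at stage 12+. Introns of lama1 and lamb1 were lower at stage 11+ (-1.13 and -1.64), and those of lama1 also at stage 12+ (-0.80).

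Introns and exons of some integrins did not change together. Introns of itga5 were lower at stage 10+ with 130, 151, 192 and 139 CPM in 4x zT LOF embryos against 177, 285, 513 and 297 CPM in control MO embryos (-1.06 ± 0.21, edgeR adjusted p = 0.00224), the stage at which its exon counts were higher. Introns of itga6 were higher at stage 11+ (218 to 332 CPM against 127 to 203 CPM, 0.72 ± 0.20, adjusted p = 0.0147) and stage 12+ (209 to 290 CPM against 114 to 168 CPM, 0.79, adjusted p = 0.00549), without a called change in its exons. Introns of itgb1 had log2 fold changes of 0.45 at stage 11+ and 0.43 at stage 12+ that were not called (adjusted p = 0.107 and 0.103), opposite in sign to the called falls of its exons, and in the fit over the 3 stages its introns were called higher (0.35, adjusted p = 0.0126). Introns of itgb2, a leukocyte subunit, were higher at stage 12+ (8.85 to 12.4 CPM against 1.89 to 5.99 CPM, 1.32 ± 0.31, adjusted p = 0.00304), as were those of itga8 (1.02). Counting ignored strand, so reads of a gene within or antisense to an intron cannot be told apart from those of the intron, and the intron comparisons were not refitted without single libraries.

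At stage 9+, few exon differences between LOF and control embryos were called among these genes. Of 45 genes tested, 1 was called in embryos that had lost Wnt and BMP signalling together (1.74% of all genes tested were called). There was no call, 0 of 45, after the loss of Wnt alone (1.15% of all genes), Nodal alone (0.681%) or BMP alone (0%), of Wnt with Nodal (2.39%), of Nodal with BMP (0.575%), or of all 3 signals (2.99%). In the same order, 0, 4, 1, 3, 3 and 3 genes had an unadjusted p under 0.05. Among these 6 comparisons, DESeq2's test called itgb4 after the loss of Wnt with Nodal and of all 3 signals, and 0 genes in the other 4. Averaged over the other signals, loss of Wnt gave 0 calls (5.69% of all genes), loss of Nodal 1 (1.68%) and loss of BMP 0 (0.0875%), with 1, 2 and 2 genes at an unadjusted p under 0.05 and no call by DESeq2's test for Wnt or BMP.

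The called genes were fn1 and itgb4. Transcripts of fn1 measured 625, 623 and 682 CPM in Wnt/BMP LOF embryos, against 826, 782 and 752 CPM in control embryos, without overlap (log2 fold change -0.29 ± 0.08, edgeR adjusted p = 0.088). This call was lost with DESeq2 size factors (adjusted p = 0.106), without the filter on low counts (0.221), without replicate 1 (0.321) and without replicate 2 (1). The other 6 LOF groups had 590 to 785 CPM. For itgb4, averaged over the other signals, loss of Nodal gave a log2 fold change of -0.97 ± 0.23 (adjusted p = 0.0425). It had 0.743, 0.867 and 0.362 CPM in Nodal LOF, 0.83, 0.823 and 0.237 CPM in Wnt/Nodal LOF, 0.641, 0.917 and 0.654 CPM in Nodal/BMP LOF and 0.407, 0.843 and 0.636 CPM in Wnt/Nodal/BMP LOF embryos. The groups without loss of Nodal had 0.614, 1.77 and 1.08 CPM (Wnt LOF), 1.56, 1.8 and 1.5 CPM (BMP LOF), 0.667, 1.1 and 0.92 CPM (Wnt/BMP LOF) and 1.89, 2.26 and 1.01 CPM (control). The ranges overlapped, and the call was lost without replicate 1 (adjusted p = 0.23), replicate 2 (0.664) or replicate 3 (0.393).

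With the replicate number as a block, more of these genes were called at stage 9+. The counts were 0 for the loss of Wnt alone (3.97% of all genes tested), 2 for Nodal alone (2.28%) and 0 for BMP alone (0.0437%). They were 3 for Wnt with Nodal (6.06%), 4 for Wnt with BMP (7.59%), 2 for Nodal with BMP (2.82%) and 3 for all 3 signals (8.14%). The laminin chain lama5 was among them in Nodal LOF, with 36, 34.6 and 33.3 CPM against 46.6, 41.1 and 36.8 CPM in control embryos (log2 fold change -0.26, edgeR adjusted p = 0.0512 with the block), and in the 4 combined LOF groups. The gamma chain lamc1 was lower in Wnt/Nodal/BMP LOF with 54.3, 69.6 and 68.3 CPM against 82.9, 84.1 and 74.2 CPM (-0.33, adjusted p = 0.00831 with the block). The receptor subunit itgb4 was lower in all 4 groups with loss of Nodal under the block, and col18a1 and lamc1 in Wnt/BMP LOF. Averaged over the other signals, the block gave 3 calls for loss of Wnt (16% of all genes: col4a5, itgb2 and itgb1), 1 for loss of Nodal (3.14%: itgb4) and 1 for loss of BMP (1.16%: col1a2).

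Intron counts at stage 9+ separated the groups further for fn1 and itga5. Of 31 genes tested, all called differences in comparisons with control were lower levels. They numbered 1 after the loss of Wnt alone (0.974% of all 11499 genes tested were lower), 1 after that of Nodal alone (1.92%) and 0 after that of BMP alone (0%, with 1 gene at an unadjusted p under 0.05). The loss of Wnt with Nodal gave 2 (3.04%), that of Wnt with BMP 4 (2.37%), that of Nodal with BMP 2 (2%) and that of all 3 signals 5 (3.88%). Averaged over the other signals there were 3 for loss of Wnt (3.41%), 2 for loss of Nodal (3%) and 1 for loss of BMP (0.487%). Introns of itga5 had 62, 95.3 and 69.4 CPM in Nodal LOF (log2 fold change -1.38 ± 0.30, edgeR adjusted p = 0.0163) and 58.5, 70 and 68.2 CPM in Wnt/Nodal/BMP LOF (-1.59, adjusted p = 0.00208), against 262, 175 and 156 CPM in control embryos. They were also called lower after the loss of Wnt with Nodal (-1.46), Wnt with BMP (-1.38) and Nodal with BMP (-1.22). Every library of these 5 groups lay below every control library, whereas exon counts of itga5 in these groups (80.7 to 204 CPM) spread around those of the control (100, 127 and 112 CPM).

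Introns of fn1 were lower in Wnt/Nodal/BMP LOF, with 29.2, 57 and 45.3 CPM against 290, 146 and 89.8 CPM in control embryos (log2 fold change -1.99 ± 0.44, edgeR adjusted p = 0.00957), in Wnt/Nodal LOF with 40.5, 65.2 and 37 CPM (-1.87, adjusted p = 0.0195) and in Wnt/BMP LOF with 32.6, 79.2 and 65.4 CPM (-1.57, adjusted p = 0.0791). None of these 9 libraries reached the lowest control library. Introns of itgb1 were lower in Wnt/BMP LOF (740, 777 and 975 CPM, -0.55) and Wnt/Nodal/BMP LOF (780, 812 and 967 CPM, -0.51), against 1146, 1343 and 1162 CPM in control embryos, again without overlap. Introns of lamb3 were lower in the 3 groups that combined loss of BMP with another loss (-1.48 in Wnt/BMP, -1.41 in Nodal/BMP and -1.33 in Wnt/Nodal/BMP LOF), and loss of BMP averaged over the other signals gave -1.08 ± 0.16 (adjusted p = 0.00242). The fifth call in Wnt/Nodal/BMP LOF was lama5 (12.1, 19.2 and 25.9 CPM against 61.8, 40 and 41.1 CPM, -1.31, adjusted p = 0.0513), and the call in Wnt LOF was itgb3bp (3.35, 2.86 and 3.46 CPM against 11.6, 9.28 and 15.2 CPM, -1.88, adjusted p = 0.0352). Summed markers of notochord and organizer were 57.4 to 109 CPM after the loss of Wnt with Nodal and 70.5 to 110 CPM after that of all 3 signals, against 1168 to 1730 CPM in control embryos, and their part in these intron differences was not tested.

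**Figure D3:**
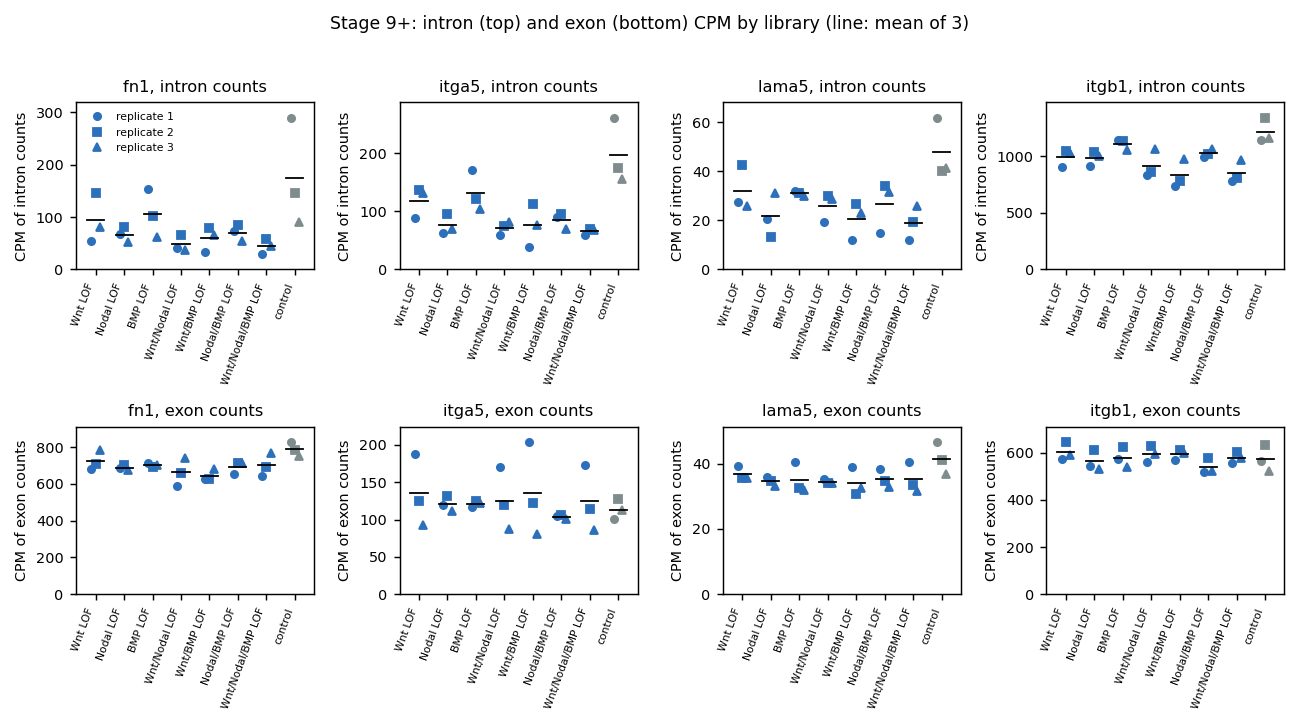
Intron CPM (top) and exon CPM (bottom) of fn1, itga5, lama5 and itgb1 at stage 9+ in the 7 LOF groups and, at the right, the control, with 1 point per library, markers by replicate number and a line at the mean of 3 libraries. The intron points of itga5 in control embryos, at 156 to 262 CPM, lay above those of every group with loss of Nodal, while its exon points in the LOF groups (80.7 to 204 CPM) lay on both sides of those in the control (100 to 127 CPM).

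Much of the variation of these genes at stage 9+ followed the replicate number, not the treatment. On the log2(CPM + 0.1) scale, a median of 65.8% of the variance of the 45 genes lay between replicate numbers and 14.5% between groups, and the replicate number held more than 50% for 27 genes. The groups held more than 50% for 2 genes, fn1 (52.7%) and itgb4 (59.5%). In the T-box experiment the medians over 48 genes were 5.33% between replicate numbers and 84.0% between groups. Its 6 groups also differed in stage, so this share between groups includes stage and is not comparable with the one at stage 9+. The fibril-associated collagen col14a1 had 27.4 to 32.8 CPM in the 8 libraries of replicate 1, 1.11 to 2.24 CPM in those of replicate 2 and 0 to 0.0901 CPM in those of replicate 3. The laminin receptor subunit itga6 had 43.9 to 47.5 CPM in replicate 1, 12.6 to 15.5 CPM in replicate 2 and 6.70 to 9.93 CPM in replicate 3. For lamb1 it was replicate 2 that stood apart, with 1.58 to 3.64 CPM against 8.57 to 12.8 CPM in replicate 1 and 8.85 to 10.9 CPM in replicate 3. The labels do not say what the replicate numbers stand for.

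**Figure D4:**
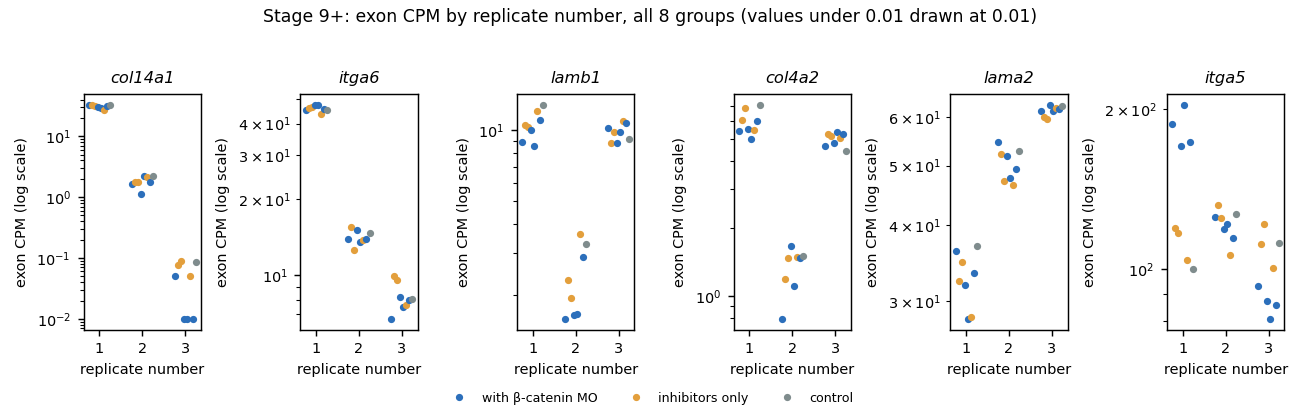
Exon CPM (log axis, values under 0.01 drawn at 0.01) of 6 genes in all 24 libraries at stage 9+ by replicate number, with groups that received the β-catenin MO in blue, groups with inhibitors only in orange and the control in grey. The colours lay together within each replicate number for col14a1, itga6, lamb1, col4a2 and lama2, whereas for itga5 the blue points of replicate 1, at 170 to 204 CPM, lay above the orange and grey ones.

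For itga5, replicate 1 differed from the others in how exon counts stood between groups. Its 4 libraries with the β-catenin MO had 188, 170, 204 and 173 CPM (Wnt LOF, then Wnt lost with Nodal, with BMP and with both), against 100 CPM in the control and 104 to 120 CPM in the groups with inhibitors only. In replicate 3 the same groups had 80.7 to 93.1 CPM, below the control at 112 CPM. In the T-box experiment the replicate number held more than 50% of the variance for 3 genes, itgb2 (93.9%), col14a1 (76.9%) and col27a1 (63.1%). The subunit itgb2 had 1.74 to 3.37 CPM in the 6 libraries of replicate 3 and 0.269 to 0.663 CPM in the others. For itga4 the share was 28.1%, and it had 0.160 to 0.962 CPM in the replicate 2 libraries of stages 10+ and 11+ and 3.85 to 9.68 CPM in the others of these stages.

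In the 4sU table, enrichment is the count of read pairs in 4sU-enriched RNA over that in input RNA after DESeq2 size factors. There was 1 library of each kind (888940 to 7884062 pairs on genes), so no test was made, and the 95% exact (Clopper-Pearson) intervals cover counting error only. At stage 8+, 21 of these genes had at least 10 input pairs, with a median enrichment of 0.618 against 0.764 over all other genes. Of them, 2 were enriched at least 2-fold (17.4% of all genes) and 9 stood at 0.5-fold or less (34.6%). At stage 10+, 20 genes had a median of 1.40 against 0.683, with 6 at 2-fold or more (23.3% of all genes) and 7 at 0.5-fold or less (42.1%). The counts at 0.5-fold or less take in genes whose 0 enriched pairs allow more than that. These were col27a1 and col9a3 at stage 8+ (up to 3.34 each) and col5a2 at stage 10+ (up to 1.63). Intervals for the medians, taken from the ranks of the genes, were 0.121 to 1.24 at stage 8+ and 0.398 to 2.60 at stage 10+. Each included the median of the other genes, so with this minimum a difference from other genes was not shown at either stage. Medians depended on the scaling, at 0.492 and 0.904 when libraries were scaled by their totals, against 0.608 and 0.442 over all other genes.

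With DESeq2 size factors, several laminin chains had an enrichment above 1 at stage 10+. Single ratios shift with the scaling as the medians do. Enrichment of lama5 was 3.10 (1.94 to 4.86) at stage 10+ from 30 enriched and 63 input pairs, and 0.121 (0.00303 to 0.692) at stage 8+ from 1 enriched and 92 input pairs. For lamb1 it was 1.87 (1.27 to 2.71) at stage 10+, and at stage 8+ 0 enriched pairs beside 84 input pairs allow at most 0.398 (3 counts, leaving out the counting error of the input, with which the exact interval ends at 0.50). At stage 10+, lamb3 had 5.31 (2.88 to 9.67), lama4 16.8 (8.40 to 36.0, from 12 input pairs) and lama1 2.60 (0.596 to 9.03), the last with an interval that includes 1. Collagen XVIII (col18a1) had 2.83 (2.13 to 3.72) at stage 10+ and 1.2 (0.638 to 2.09) at stage 8+. The sixth gene above 2-fold at stage 10+ was itgb1bp1 (2.84). Among genes with at least 10 input pairs, the most enriched at stage 8+ were col13a1 (4.77, 1.50 to 13.2, from 6 enriched and 14 input pairs) and itga5 (2.80, 2.22 to 3.49). Genes under this minimum were not ranked, although some had more enriched than input pairs. At stage 8+, itgb8 had 13 enriched and 2 input pairs, and lama1 11 and 2. At stage 10+, 10 genes with fewer than 10 input pairs had at least 8 enriched pairs, among them col8a1 (39 enriched and 0 input). The share of all genes with such counts was not determined, so this number does not set these genes apart from others.

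Among genes with at least 10 input pairs at both stages, itga5 was the one enriched over 2-fold at stage 8+ and low at stage 10+. Its enrichment at the later stage was 0.130 (0.0351 to 0.339) from 4 enriched and 200 input pairs. The collagen col5a2, under the minimum at stage 8+, had 18 enriched and 8 input pairs there, and 0 enriched and 12 input pairs at stage 10+. These last counts allow up to 1.63 (exact interval ending at 2.34), so a low enrichment of col5a2 at stage 10+ was not shown. The subunit itgb5, seen in this table alone, had 1.35 (0.698 to 2.41) at stage 8+ and 0.223 (0.0597 to 0.585) at stage 10+. Enrichment of itgb1 had overlapping intervals at both stages, at 1.37 (1.24 to 1.50) and 1.46 (1.36 to 1.57). Fibronectin stood at 0.814 (0.646 to 1.01) at stage 8+ and 0.598 (0.488 to 0.728) at stage 10+, with 1177 and 1197 input pairs. In total input RNA, 24 genes had at least 10 pairs at either stage, and their median level at stage 10+ over stage 8+ was 1.21 against 1.05 over all other genes, with 4 at least 2-fold higher (9.14% of all genes) and 3 at least 2-fold lower (8.46%). The higher ones were lama1 (6.87, 1.46 to 64.5), lama4 (3.30, 1.08 to 12.0), lamb1 (2.16, 1.63 to 2.87) and col5a2 (2.06, 0.775 to 5.81), followed by col18a1 (1.85, 1.47 to 2.34). The lower ones were col27a1 (10 pairs at stage 8+ and 0 at stage 10+), col24a1 (0.305) and col9a3 (0.412), followed by lamb3 and col13a1 at 0.589 each.

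**Figure D5:**
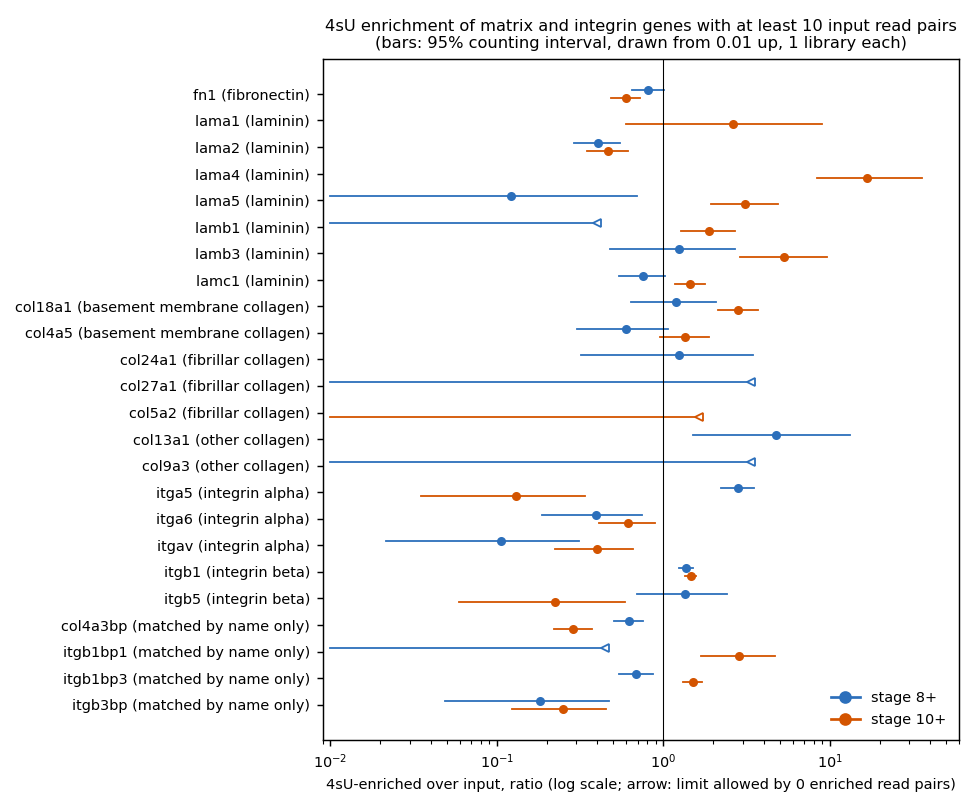
Enrichment in 4sU-labelled over input RNA (log axis) of each matrix and integrin gene with at least 10 input pairs, at stage 8+ in blue and stage 10+ in orange, with 95% exact counting intervals, and an arrow at the limit that 0 enriched pairs allow. The orange points of lama4, lamb3, lama5 and col18a1 lay above 2 at stage 10+, and itga5 was the gene with a blue point above 2 and an orange point far below 1.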

How the data were processed

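The authors deposited raw counts of poly(A) RNA reads per gene, separately for exons and introns, made with STAR 2.5.3a on genome build v7.1 with revised gene models and counted with VERSE without strand, so overlapping or antisense genes and close paralogs could share reads. For 4sU, the authors deposited a table of raw counts of read pairs aligned with Bowtie2 2.1.0, in which 1 line held unmapped pairs (39.5% to 95.5%). This line and 10 lines of non-gene sequences were left out.

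Exon counts were tested with edgeR 4.0.16 in R 4.3.3 (TMM, filterByExpr on the group, quasi-likelihood test, Benjamini-Hochberg adjustment over all genes, called at 0.1), over 24 libraries per experiment, with condition alone at stage 9+, group means for each stage of the T-box experiment, and stage and condition over its 3 stages. The scripts were tested on simulated counts. Alternatives were DESeq2 1.42.0 size factors and test, no filter, the replicate number as a block, intron counts and leaving out each replicate number. Nothing in the labels says that replicates came from separate crosses, so p-values measure the spread between these libraries. Same-numbered libraries of different groups deviated from their group means together (r of 0.413 to 0.879 in 21 pairs at stage 9+ and 0.573 to 0.881 in 12 in the T-box experiment). The numbers were therefore taken to pair libraries in the counts of same-numbered pairs and in the block. The main tests did not use this pairing. No library repeated another. The 4sU ratios used genes with at least 10 input pairs.

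Genes named in the text were a fixed list of 24 common matrix and integrin genes, called genes with the largest changes in each comparison (at most 6 in each direction at stage 9+ and 12 in the others), at most 8 by the stage by condition test and 5 per ranking of the 4sU table, with others named from their values. The genes and lists were chosen with earlier results of these data known. The values of 1 gene too low to test are not reported here.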

Additional observations from a re-analysis of the deposited data

Results flagged for a closer look

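In the T-box experiment, 7 of the 126 groups of 4 libraries examined held a library far from the other 3 by Dixon's test at its 95% level, which chance gives in about 1 of 20 groups. The highest were replicate 4 of control MO embryos at stage 12+ for lama5 (322 CPM, with the next at 230 CPM), replicate 1 of 4x zT LOF embryos at stage 11+ for col2a1 (0.640 CPM, next 0.292 CPM), replicate 2 of 4x zT LOF embryos at stage 12+ for lama4 (2.39 CPM, next 1.53 CPM), and replicate 2 of control MO embryos at stage 10+ for col5a1 (0.115 CPM, next 0.0144 CPM). For itga6, replicate 3 was far above the others in 4x zT LOF embryos at stage 11+ (115 CPM, next 75.6 CPM) and in control MO embryos at stage 12+ (199.7 CPM, next 171 CPM). The lowest was replicate 4 of control MO embryos at stage 12+ for col9a3 (19.9 CPM, next 24.1 CPM).

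The effect of 4x zT LOF differed between stages in edgeR's test of the stage by condition terms for col2a1 (adjusted p = 0.000111), lama5 (0.000589), col9a2 (0.00251), col9a3 (0.00304), col4a3bp (0.00736), itga5 (0.0167), itgb1bp2 (0.0172) and itgav (0.0291). Over all genes tested, 27.1% were called in this test, close to the share among the matrix and integrin genes.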

How the results depend on the processing

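Counts of called genes were within 1.5 times of those reported under DESeq2 size factors, DESeq2's test and no filter, apart from Wnt/BMP LOF (0 with DESeq2 size factors and 0 with no filter) and DESeq2's test in Wnt/Nodal LOF (1) and Wnt/Nodal/BMP LOF (1). With the replicate block the counts were 2 for the loss of Nodal, 3 for Wnt with Nodal, 4 for Wnt with BMP, 2 for Nodal with BMP, 3 for all 3 signals, 3 and 1 for loss of Wnt and of BMP averaged over the other signals, 7 in 4x zT LOF at stage 10+ and 22 for stage by condition, and no call of a named gene was lost under the block. With intron counts they were 1 for Wnt, 1 for Nodal, 2 for Wnt with Nodal, 4 for Wnt with BMP, 2 for Nodal with BMP, 5 for all 3 signals, 3, 2 and 1 for the averaged losses of Wnt, Nodal and BMP, 7 in 4x zT LOF at stage 11+, 26 between control MO stages 12+ and 10+, and 5 for stage by condition. Fewer genes were tested with introns. Shares of all genes called with introns are not given for the control MO stages and the stage by condition test. Their intron counts therefore do not show how these genes compare with others.

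Leaving out each replicate number gave 1 to 4 calls in 4x zT LOF at stage 10+, 11 to 15 at stage 11+, 18 to 20 at stage 12+, 14 to 17 over stages, and 6 to 12 for stage by condition. It gave 15 to 20, 34 to 37 and 38 to 40 between control MO stages 11+ and 10+, 12+ and 11+, and 12+ and 10+. At stage 9+ it gave 0 to 1 in Wnt/Nodal LOF and in Wnt/BMP LOF, 0 to 2 for the averaged loss of Wnt, and 0 in every other comparison there. The sign turned for itga5 in Wnt LOF (-0.13 without replicate 1 to 0.46 without replicate 3), itga4 in 4x zT LOF at stage 12+ (-0.20 without replicate 1 to 0.0183 without replicate 4) and itgb4 in BMP LOF (-0.31 without replicate 3, 0.0159 without replicate 1 and 0.0774 without replicate 2). The cause was not tested for any of these.

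Intron counts turned the sign of 42 of the 162 single-gene results they could be tested for, 18 of them with a called intron change, with these log2 fold changes. In 4x zT LOF they were -1.06 for itga5 at stage 10+. At stage 11+ they were 0.16 for col18a1, 0.45 for itgb1, 0.16 for itgb1bp1, 0.21 for itgb1bp2, -0.12 for itgb1bp3 and 0.22 for lamc1. At stage 12+ they were 0.43 for itgb1, 0.17 for itgb1bp1, -0.79 for itgb1bp3, 0.0953 for itgb4, -0.13 for lama2, 0.19 for lamc1 and 0.0343 for itga4. Over stages they were 0.0634 for col18a1, 0.35 for itgb1, 0.0322 for itgb1bp1, -0.22 for itgb1bp3, 0.11 for itgb4 and 0.12 for lamc1. Between control MO stages 11+ and 10+ they were -1.20 for col1a2, -1.20 for col2a1, -0.97 for itgb1, -0.43 for itgb1bp2 and -0.46 for itgb1bp3. Between stages 12+ and 11+ they were -0.68 for col18a1, 1.69 for col4a3bp, 1.26 for col4a5, -0.90 for itga5, -0.15 for itga6, -1.31 for itgb1, -0.68 for lama5, -0.68 for lamb3 and -0.0982 for lamc1. Between stages 12+ and 10+ they were -0.0033 for col18a1, 1.25 for col4a3bp, 0.62 for col4a5, -0.45 for itga5, -2.28 for itgb1 and -0.65 for lama4. At stage 9+ they were -0.73 for itga5 in Wnt LOF and 0.12 for itgb4 in BMP LOF. Of the results that kept their sign with introns, 33 were weaker, 83 the same and 4 stronger. The weaker ones in 4x zT LOF included lama4 (-0.41, edgeR adjusted p = 0.338) and itga3 (-0.46, 0.403) at stage 11+. At stage 12+ they included lamb1 (-0.34, 0.266) and itgav (0.10, 0.764). These were called with exon counts and not with introns.

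In the 4sU table, adding a pseudocount of 1 with no minimum gave median enrichments of 2.78 at stage 8+ and 3.26 at stage 10+. Over all other genes they were 1.78 and 1.63, and the rank intervals were 1.86 to 5.57 and 2.17 to 3.26. Genes with few or no input pairs then entered, and their ratios depend largely on the pseudocount, even without enriched pairs. These medians and intervals therefore cannot decide whether the matrix and integrin genes differ from others, and no difference was concluded from them. A minimum of 50 input pairs gave 0.618 and 0.984, against 0.783 and 0.710 over all other genes. Enriched libraries held few pairs, which limits single genes there, and the lowest genes of the poly(A) libraries could not be tested.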
